A study of Homo sapiens with 6 samples.

Results

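The genes of the nuclear pore and of its transport receptors were followed in the established renal carcinoma line ACHN, of human origin, with and without curcumol, a sesquiterpenoid of Curcuma rhizome oil. They were taken as the rows of the count table with a nucleoporin symbol (NUP and a number) or a karyopherin symbol (KPNA, KPNB, IPO, XPO or TNPO and a number), together with RANBP2, TPR, NDC1 and RAN. This gave 48 genes of the 58735 in the table, and 46 of them had enough counts to be tested. Bulk poly(A) RNA was sequenced from 3 control and 3 curcumol libraries, which the submitters describe as independent biological replicates of the wild-type line. The control is called a vehicle control in the sample labels and untreated in the design text, so which of these it was cannot be told. Neither the vehicle nor the dose nor the length of exposure is given in the sources used here.

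Nuclear pores are large channels through the nuclear envelope, built from many copies of nucleoporins that form an outer and an inner ring, a membrane anchor, cytoplasmic filaments, a nuclear basket and a central channel filled with flexible repeats rich in phenylalanine and glycine. Cargo crosses with karyopherins, which bind those repeats. Import receptors release cargo when they meet the GTP-bound form of the small GTPase RAN in the nucleus, and exportins bind cargo together with it and let go in the cytoplasm.

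Libraries held 16962012 to 17827433 counts, and 15160 genes were tested. Levels are CPM, the counts of a gene relative to the library's total, scaled by trimmed-mean (TMM) factors, and errors of levels are SD over 3 libraries. Changes are log2 fold changes of curcumol over control with SE, tested with the quasi-likelihood test of edgeR and called at an adjusted p under 0.05. Of the kidney and carcinoma markers checked, PAX8, PAX2, KRT8, KRT18, CDH2, VIM and MET were expressed and all 7 were lower in curcumol, though KRT18 was called higher (0.20) with a GC offset (summed with CA9, 4903 to 5242 CPM in control and 3335 to 3741 CPM in curcumol), whereas CA9, which marks clear cell renal carcinoma, had at most 3 counts in any library. Leukocyte markers summed to at most 0.942 CPM with CD3E at 0 counts in all 6 libraries, a count that allows up to 0.155 to 0.192 CPM, and endothelial markers summed to at most 0.568 CPM. The 4 fibroblast markers summed to 7.07 to 8.29 CPM in control and 7.62 to 16.2 CPM in curcumol, with 2 of 3 tested higher and 1 lower. COL3A1, among the higher, had 0 counts in all 3 controls and passed the filter on low counts only through its curcumol libraries (28, 58 and 23 counts). The part of these marker changes in the results was not tested. In bulk RNA, fewer cells of a kind and less RNA per cell cannot be told apart.

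In the main fit, curcumol-treated cells had more mRNA for 3 of 4 genes of the central channel, all 3 of the nuclear basket and 4 of 6 tested importin alpha adaptors. They had less for 5 of 6 outer ring genes in the set, for importin beta (KPNB1) and for 4 of 5 exportins. With a GC offset 3 importin alpha adaptors were higher and 3 lower, all 5 exportins were lower, and TPR of the basket was not called. With library totals 3 importin alpha adaptors were higher and 2 lower, and NUP50 of the basket was not called. Of the 46 tested genes, 16 were higher and 24 lower, so that 40 (87.0%) were called, where 79.7% of all tested genes were. All genes split into 39.4% higher and 40.3% lower, against 34.8% and 52.2% of the members. The groups did not overlap for 41 members (89.1%) and for 81.0% of all genes, with curcumol above control for 15 members (39.8% of all genes) and below for 26 (41.1%). The median log2 fold change was -0.17 over the members and -0.02 over all genes tested. Changes of at least 2-fold were called for 6 members that rose and 8 that fell (17.4%), where the shares over all genes were 21.3% and 23.1%. The large rises were the part that depended on the setting: with library totals 2 members rose and 9 fell at least 2-fold (16.2% and 29.4% of all genes), and with a GC offset 2 and 11 (18.9% and 21.6%). Among genes with a mean of at least 100 counts, 86.7% of 45 members and 85.7% of 10431 genes were called, so the share was close to that of other genes of this depth.

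How members are split between higher and lower depends on the scaling. With library totals alone, which moved the median of all genes to -0.28, 11 members were higher and 29 lower (all genes 31.8% and 48.6%). With an offset for GC content 12 were higher and 33 lower (all genes 38.0% and 41.4%). Under 4 other scalings or offsets (DESeq2-type size factors, library totals, GC content and exon length), 10 of the 16 rises and 22 of the 24 falls held their direction and passed each time. The 10 rises were those of RANBP2, NUP54, NUP58, NUP62, NUP153, KPNA1, KPNA4, KPNA5, TNPO3 and NUP210L, the last of which passed the filter on low counts only through its curcumol libraries. The 2 falls that did not hold were those of NUP88 and XPO4.

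**Figure D1:**
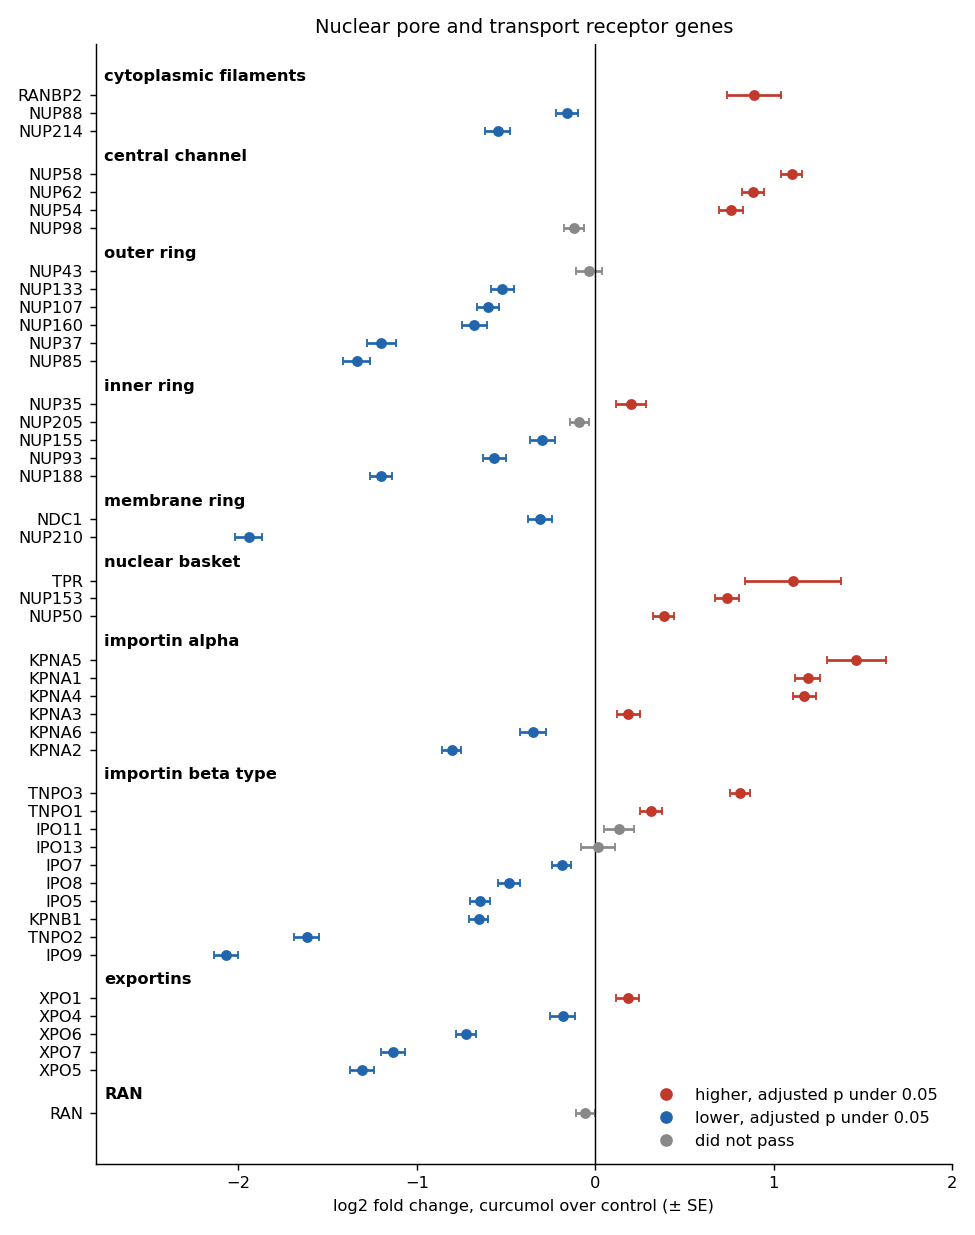
Log2 fold change of curcumol over control (horizontal axis, ± SE) for the tested members, grouped by their place in the pore or their class of carrier; NUP210L is left out because of its few counts. Red points were called higher, blue points lower and grey points did not pass; NUP35, KPNA3 and XPO1 change sign with library totals and, like TNPO1, with a GC offset, and NUP43, IPO11 and IPO13, which did not pass, change sign under at least 1 other scaling or offset.

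The central channel is lined by a trimer of NUP62, NUP54 and NUP58, and all of its members rose. NUP58 (ENSG00000139496, chromosome 13, 25301524 to 25349800, GRCh38) stood at 122, 137 and 131 CPM in control and at 266, 279 and 290 CPM in curcumol. Every curcumol library was above every control library, with a log2 fold change of 1.10 ± 0.06 (edgeR adjusted p = 4.23e-13). NUP62 (0.88 ± 0.06) and NUP54 (0.76 ± 0.07) rose as well. With a GC offset these values were 0.42 for NUP58, 1.31 for NUP62 and 0.15 for NUP54, all still called, and NUP54 stood at 0.50 with library totals. NUP62 shares 626 exonic bases, 10.4% of its exons, with ATF5 on the other strand. The fourth channel gene, NUP98, encodes a repeat nucleoporin and, from the same precursor, an outer ring subunit. It did not pass, at 251, 266 and 249 CPM in control and 227, 243 and 238 CPM in curcumol (log2 fold change -0.12 ± 0.06, edgeR adjusted p = 0.0627). Its groups were apart but close, and it was called lower without control replicate 3 (-0.15, adjusted p = 0.0436), with library totals (-0.38) and under a GC offset (-0.28).

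The nuclear basket, which reaches into the nucleoplasm and takes part in mRNA export, had all 3 genes higher. TPR, the filament of the basket (ENSG00000047410, chromosome 1, 186311652 to 186375693), stood at 187, 141 and 247 CPM in control and 335, 472 and 433 CPM in curcumol. The groups did not overlap, but TPR varied most in control among the members with at least 100 counts, with a coefficient of variation of 27.8% in control and 17.0% in curcumol, where the median gene above 1000 counts had 4.39% and 5.42%. Its log2 fold change was 1.11 ± 0.27 (edgeR adjusted p = 0.0169). The call was lost without control replicate 1 (1.08, adjusted p = 0.0593), without curcumol replicate 2 (1.01, 0.0509), without curcumol replicate 3 (1.08, 0.0548) and with a GC offset (0.57, 0.076). NUP153 rose by 0.74 ± 0.07 from 149 ± 7.92 to 249 ± 19.9 CPM (SD, n = 3), or by 0.47 with library totals and 0.48 under a GC offset. NUP50, a cofactor of importin alpha recycling at the basket, stood at 147, 149 and 157 CPM in control and 189, 198 and 205 CPM in curcumol. It rose less than the others, without overlap, by 0.38 ± 0.06, and stood at 0.12 with library totals and no longer passed (adjusted p = 0.0755), or at 0.13 with a GC offset (0.0199).

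Of the 3 cytoplasmic filament genes in the set, RANBP2 rose while NUP214 and NUP88 fell. Of the 9 other pore subunits outside the symbol rule 6 rose, GLE1 (0.87) and NUPL2 (0.53) among them, and 2 fell. Over all genes tested 39.4% were higher and 40.3% lower. With a GC offset GLE1 stood at 0.87 and NUPL2 at 0.16, the second not called (edgeR adjusted p = 0.0604). RANBP2, the large filament protein that binds RAN and the SUMO-modified RAN GTPase activator, stood at 208, 155 and 218 CPM in control and 314, 391 and 373 CPM in curcumol. All curcumol libraries were above control, by 0.89 ± 0.15 (edgeR adjusted p = 0.00176) or 0.31 (0.0427) with a GC offset, and control replicate 2 was lowest for both RANBP2 and TPR. The 7 RGPD genes, near-identical copies of RANBP2, held 10.2% as many counts as RANBP2 and summed to 18.6 ± 1.63 CPM in control and 38.3 ± 2.77 CPM in curcumol (SD, n = 3), so reads may be divided between them. NUP214, which with NUP88 docks the mRNA export helicase, stood at 85.4, 90.9 and 82.6 CPM in control and 59.0, 60.4 and 57.9 CPM in curcumol, and fell by 0.55 ± 0.07 on the log2 scale. NUP88 changed by -0.16 ± 0.06 (edgeR adjusted p = 0.0284). That small change did not pass without control replicate 1 (adjusted p = 0.0593) or 2 (0.0821), without curcumol replicate 2 (0.133) or 3 (0.0654), or with DESeq2-type size factors (0.0865), but it was larger and called with library totals (-0.42, 3.14e-06) and under a GC offset (-0.32, 8.52e-06). NUP88 also shares 520 exonic bases with RPAIN and 468 with RABEP1 on the other strand.

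The outer ring is built from copies of the Y complex, and 5 of its 6 genes in the set fell. Y complex genes left out by the symbol rule went both ways: SEC13 (0.49) and AHCTF1 (1.01) were called higher and SEH1L (-0.87) lower. SEC13 stood at 0.22 with library totals, and AHCTF1 at 0.56 with a GC offset, both still called. NUP85 (ENSG00000125450, chromosome 17, 75205659 to 75235758) stood at 81.6, 82.6 and 79.7 CPM in control and 33.7, 29.8 and 33.0 CPM in curcumol. The groups were far apart, with a log2 fold change of -1.34 ± 0.08 (edgeR adjusted p = 6.32e-13). NUP37 fell by 1.199, NUP160 by 0.68, NUP107 by 0.60 and NUP133 by 0.52 on the log2 scale, and none of these lost its call when any 1 library was left out. With a GC offset NUP37 stood at -1.80, NUP160 at -1.11, NUP107 at -1.14 and NUP133 at -0.82. With library totals NUP133 stood at -0.79. NUP43, at 55.3, 60.2 and 58.6 CPM in control and 56.8, 53.5 and 59.7 CPM in curcumol, overlapped between groups and did not pass (log2 fold change -0.03 ± 0.07). It was called lower with library totals (-0.30) and under a GC offset (-0.33). NUP43 shares 223 exonic bases, 5.03% of its exons, with PCMT1 on the other strand. PCMT1 had 1011 to 1021 counts in the control libraries and 1963 to 2109 in those with curcumol.

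The inner ring holds the channel nucleoporins in place, and its genes were spread from a clear fall to a small rise. NUP188, one of its large scaffold subunits, stood at 192, 203 and 183 CPM in control and 86.7, 83.7 and 81.2 CPM in curcumol. It fell without overlap, with a log2 fold change of -1.2007 ± 0.06 (edgeR adjusted p = 1.58e-13). NUP205, its paralog and partner of NUP93 in the same way, did not pass, at 335, 343 and 342 CPM in control and 319, 328 and 312 CPM in curcumol (log2 fold change -0.09 ± 0.05, edgeR adjusted p = 0.125). Its groups did not overlap, and it was called lower with library totals (-0.36) and a GC offset (-0.39). NUP93, the linker of the ring, fell by 0.56 and NUP155, a membrane-binding scaffold, by 0.30. With library totals NUP155 stood at -0.56 and with a GC offset at -0.75. NUP35 stood at 35.0, 31.4 and 33.1 CPM in control and 40.1, 37.3 and 37.0 CPM in curcumol. It was called higher (0.20 ± 0.08, edgeR adjusted p = 0.0331), but stood at -0.064 with library totals and -0.33 under a GC offset. Its call was also lost without control replicate 2 (0.16, adjusted p = 0.136) or 3 (0.19, 0.0838) and without curcumol replicate 1 (0.17, 0.091).

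Of the membrane ring, which anchors the pore, NUP210 fell most of the pore genes of the set in this fit, whereas with a GC offset NUP37 fell further. NUP210, a transmembrane glycoprotein (ENSG00000132182, chromosome 3, 13316235 to 13420309), stood at 161, 168 and 164 CPM in control and 46.6, 44.3 and 37.4 CPM in curcumol. This was a fall to less than any control library, with a log2 fold change of -1.94 ± 0.08 (edgeR adjusted p = 1.17e-15), or -1.45 with a GC offset. NDC1, another membrane nucleoporin, stood at 112, 125 and 119 CPM in control and 93.1, 102 and 93.2 CPM in curcumol and fell by 0.31 ± 0.07 on the log2 scale. Its change was -0.57 with library totals and -0.78 under a GC offset. NUP210L, a paralog of NUP210, was barely present. Its control libraries held 1, 3 and 1 counts and its curcumol libraries 18, 31 and 32, a ratio of 19.6 (95% interval 8.07 to 62.0, counting error only), and it was tested only because its curcumol libraries had enough counts. At 1.71 ± 0.481 CPM in curcumol it remained far below NUP210 at 42.8 ± 4.76 CPM (SD, n = 3).

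**Figure D2:**
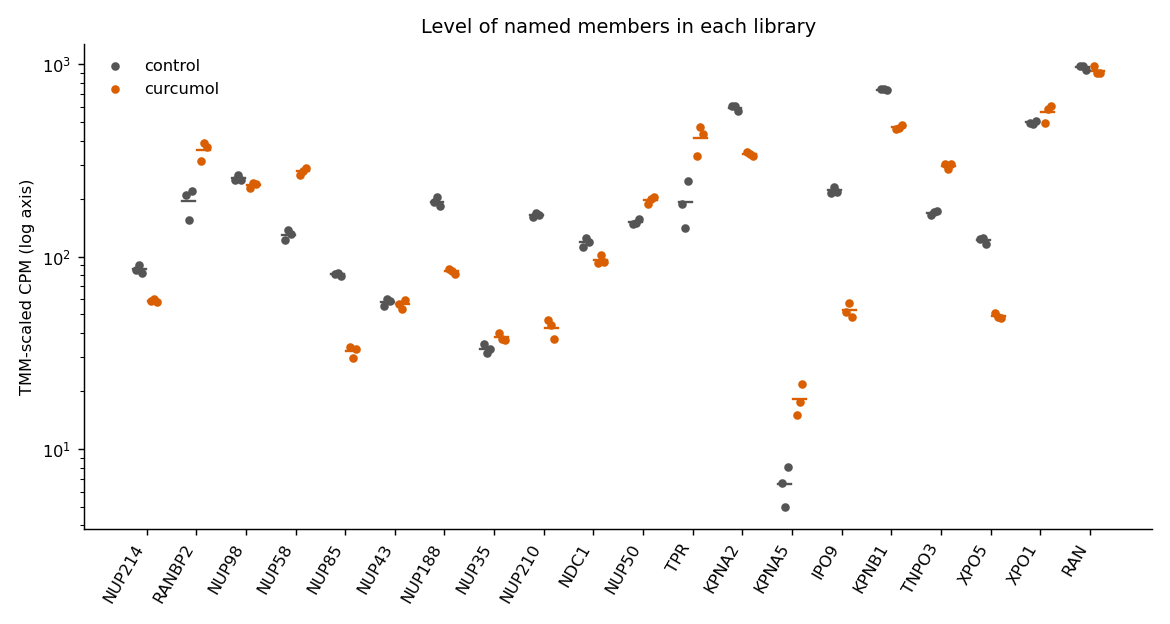
TMM-scaled CPM on a log axis for the members given library by library; each point is 1 library (grey control, orange curcumol, 3 each) and bars are group means. The groups lie apart for IPO9, NUP210, NUP85 and XPO5, and overlap for RAN, NUP43 and XPO1, which is called slightly higher here but stands below 0 with library totals or a GC offset.

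Importin alpha proteins are adaptors that recognise the classical nuclear localisation signal and hand cargo to importin beta. Of the 7 genes 4 rose and 2, KPNA2 and KPNA6, fell, and KPNA7 was not tested. KPNA2, the most abundant (ENSG00000182481, chromosome 17, 68035519 to 68046842), stood at 609, 605 and 571 CPM in control and 348, 342 and 333 CPM in curcumol. Each curcumol library was below each control library, and the log2 fold change was -0.80 ± 0.05 (edgeR adjusted p = 9.50e-12). KPNA4 rose from 121 ± 6.73 to 272 ± 14.5 CPM (1.17 ± 0.06) and KPNA1 from 37.2 ± 1.15 to 84.8 ± 0.564 CPM (1.19 ± 0.07). Under a GC offset these rises were 0.63 for KPNA4 and 0.71 for KPNA1. KPNA5 was low, at 6.62, 5.004 and 8.05 CPM in control and 14.99, 17.5 and 21.7 CPM in curcumol. It nevertheless separated the groups, with a log2 fold change of 1.46 ± 0.16 (edgeR adjusted p = 1.06e-07), or 0.70 with a GC offset. KPNA6, of the same subfamily as KPNA1 and KPNA5, fell by 0.35 ± 0.07 on the log2 scale, and stood at -0.61 with library totals. KPNA3, at 0.19 ± 0.06 (edgeR adjusted p = 0.0106), stood at -0.079 with library totals and at -0.31 with a GC offset, and was not called without control replicate 1 (0.16, adjusted p = 0.0602). KPNA7 was close to absent, with 0, 1 and 6 counts in the control libraries and 1, 2 and 0 in those with curcumol. Of the exons of KPNA1, 16.3% overlap an antisense transcript that had at most 19 counts in a library.

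Set against gene length, the make-up of the importin alpha pool shifted. Per kilobase of exon, KPNA2 stood at 189 ± 6.60 CPM in control, ahead of KPNA3 (21.2 ± 0.431), KPNA6 (14.98 ± 0.850), KPNA4 (12.8 ± 0.715), KPNA1 (4.40 ± 0.136) and KPNA5 (0.574 ± 0.134). In curcumol the order was KPNA2 (109 ± 2.39), KPNA4 (28.9 ± 1.54), KPNA3 (24.1 ± 0.874), KPNA6 (11.8 ± 1.01), KPNA1 (10.03 ± 0.0668) and KPNA5 (1.58 ± 0.298). The share of KPNA2 in the summed CPM per kilobase of the class was 78.7%, 77.9% and 76.8% in control and 59.6%, 59.0% and 57.5% in curcumol. That of KPNA4 went from 5.27% ± 0.401 to 15.6% ± 0.880, and that of KPNA1 from 1.81% ± 0.0830 to 5.42% ± 0.0563 (SD, n = 3). Shares within a library do not depend on how libraries are scaled, but they carry no GC offset. Each share also moves with the other genes of its class. The groups did not overlap for these 3 genes (exact two-sided permutation p = 0.1 for each, the smallest 3 against 3 libraries can give). The shares of KPNA3 and KPNA5 did not overlap either, while those of KPNA6 and KPNA7 did. The lack of overlap does not set these genes apart, since the levels of 81.0% of all tested genes did not overlap. Without division by length, the share of KPNA2 went from 61.6% ± 1.35 to 37.4% ± 1.12.

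Importin beta type receptors carry cargo directly or through adaptors, and of 10 tested genes 6 fell, 2 rose and 2 did not pass. KPNB1, importin beta itself (ENSG00000108424, chromosome 17, 47649476 to 47685505), stood at 747, 739 and 731 CPM in control and 462, 466 and 483 CPM in curcumol. It fell without overlap by 0.65 ± 0.05 on the log2 scale (edgeR adjusted p = 1.81e-10). IPO9, an importin of core histones (ENSG00000198700, chromosome 1, 201829141 to 201884294), stood at 215, 231 and 217 CPM in control and 51.6, 57.6 and 48.8 CPM in curcumol. This was the largest fall of any member in this fit, with a log2 fold change of -2.07 ± 0.07 (edgeR adjusted p = 1.04e-16), or -2.22 with a GC offset. IPO5, known for ribosomal protein and histone import, fell by 0.65, and the related IPO8 and IPO7 by 0.48 and 0.19 on the log2 scale. With library totals IPO7 stood at -0.45 and IPO8 at -0.75. With a GC offset IPO7 stood at -0.82, IPO8 at -0.94 and IPO5 at -1.06.

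The transportins parted. TNPO3, the importer of serine and arginine rich splicing factors (ENSG00000064419, chromosome 7, 128954180 to 129055173), stood at 164, 170 and 173 CPM in control and 302, 287 and 301 CPM in curcumol. It rose without overlap by 0.81 ± 0.06 (edgeR adjusted p = 1.49e-11). TNPO2 fell from 113 ± 2.75 to 36.9 ± 1.05 CPM (SD, n = 3; log2 fold change -1.62 ± 0.07), whereas TNPO1, its close paralog and a carrier of RNA-binding proteins, was called higher (0.31 ± 0.06, edgeR adjusted p = 8.13e-05) but stood at 0.05 with library totals and at -0.30 with a GC offset. IPO11 (0.13 ± 0.08, edgeR adjusted p = 0.153) and IPO13 (0.01 ± 0.10, 0.897) did not pass. Without curcumol replicate 1, IPO11 was called higher (0.22, adjusted p = 0.0134), and 17.0% of its exons overlap LRRC70 on its own strand, which had at most 22 counts. A further overlap on that strand, 5.68% of its exons, is with KIF2A, which had 1048 to 1297 counts. With a GC offset IPO11 stood at -0.44 and IPO13 at 0.51, and both were then called. IPO4, with 9, 12 and 5 counts in the control libraries and 0, 0 and 5 in those with curcumol, was not tested. Of its exons 69.3% are shared with AL136295.4 on the same strand, which had at most 2 counts, and how reads common to both were counted is not stated in the labels.

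In the importin beta class the share of TNPO3, per kilobase, went from 11.3% ± 0.158 to 24.0% ± 0.959, and the shares of KPNB1 from 30.1% ± 0.752 to 23.2% ± 0.292 and of IPO9 from 5.80% ± 0.187 to 1.67% ± 0.148 (SD, n = 3). The groups did not overlap for these genes (exact two-sided permutation p = 0.1 for each, the smallest possible), nor for any other tested gene of the class. This does not set them apart, since the levels of 81.0% of all tested genes did not overlap. A share also depends on the sum of its class, which went from 320 ± 4.63 to 264 ± 5.49 CPM per kilobase. The levels of IPO11 and IPO13 themselves overlapped between groups. Per kilobase, the share of TNPO3 was above that of KPNB1 in all 3 curcumol libraries, by little, and in 0 of 3 controls. This order depends on the division by length. Without it KPNB1 stayed ahead in curcumol, at 23.6% ± 0.441 against 14.9% ± 0.695 for TNPO3 (SD, n = 3).

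Exportins carry cargo out of the nucleus, and 4 of the 5 fell while XPO1 did not, unless a GC offset was used. XPO1, also called CRM1, is the receptor for the leucine-rich export signal (ENSG00000082898, chromosome 2, 61477849 to 61538626) and stood at 496, 491 and 508 CPM in control and 497, 589 and 609 CPM in curcumol. Curcumol replicate 1 lay inside the control range. XPO1 was called higher (0.18 ± 0.06, edgeR adjusted p = 0.0148), but not without control replicate 1 (0.17, adjusted p = 0.0597) or 2 (0.17, 0.0504) or without curcumol replicate 2 (0.15, 0.0753) or 3 (0.13, 0.0874), and it stood at -0.084 with library totals and -0.37 under a GC offset. XPO5, the exporter of precursor microRNAs (ENSG00000124571, chromosome 6, 43522330 to 43576075), stood at 123, 125 and 117 CPM in control and 50.9, 48.3 and 48.2 CPM in curcumol. The gap was wide, with a log2 fold change of -1.31 ± 0.07 (edgeR adjusted p = 1.17e-13). XPO7 fell by 1.13 and XPO6, the exporter of actin, by 0.73 on the log2 scale. XPO4 (-0.18 ± 0.07, edgeR adjusted p = 0.0199) did not pass without control replicate 3 (-0.16, adjusted p = 0.0648), without curcumol replicate 1 (-0.14, 0.0711), with DESeq2-type size factors (-0.15, 0.0559) or with an exon length offset (-0.08, 0.24), but its fall was larger and called with library totals (-0.45, 7.75e-06) and under a GC offset (-0.77, 1.30e-12). The share of XPO1 in the class, per kilobase, was 33.5%, 33.2% and 35.0% in control and 47.1%, 51.6% and 52.9% in curcumol, so the groups did not overlap (exact two-sided permutation p = 0.1, the smallest possible). The same held for the share of every other exportin. The levels of 81.0% of all tested genes did not overlap either. A share also depends on the sum of its class, which went from 125.5 ± 1.47 to 95.3 ± 4.55 CPM per kilobase. Thus the share of XPO4 went up, from 6.65% ± 0.341 to 7.71% ± 0.0565 (SD, n = 3), though its log2 fold change was -0.18.

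**Figure D3:**
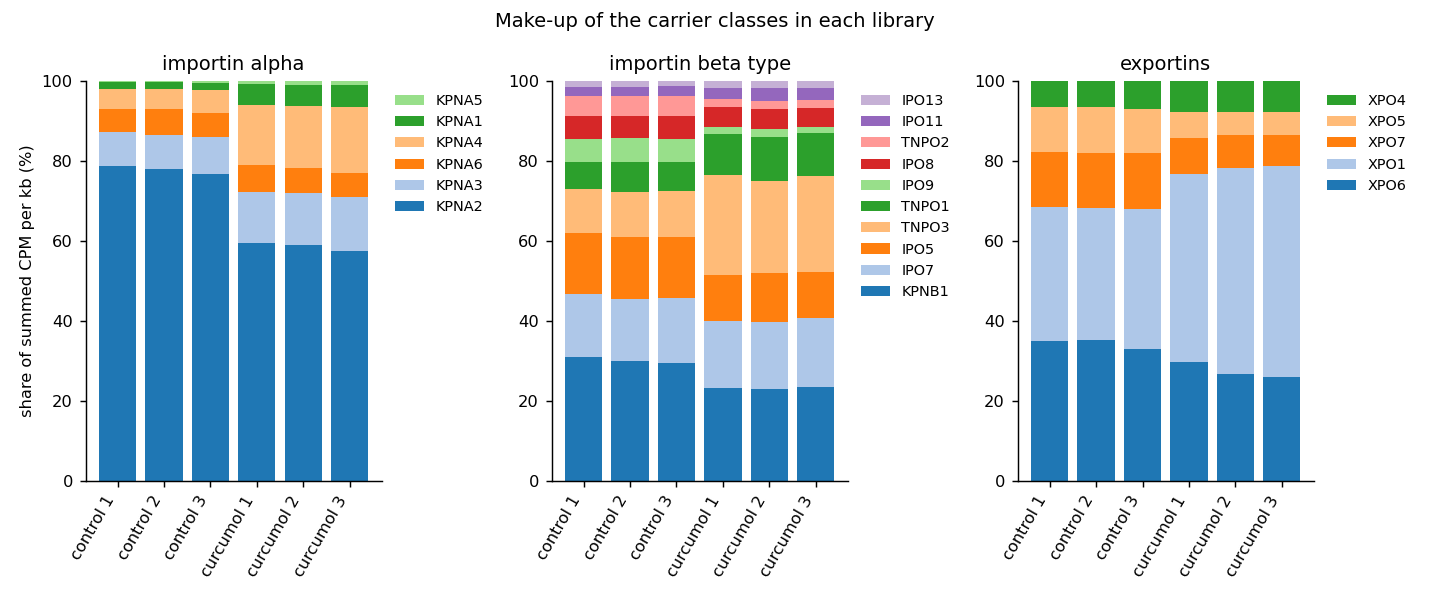
Share of each gene (stacked, in percent of the summed CPM per kilobase of exon of its class) in each of the 6 libraries for importin alpha, importin beta type and exportin genes; KPNA7 and IPO4 are left out as too small to see. KPNA2 takes 76.8% to 78.7% of its class in control and 57.5% to 59.6% in curcumol, and XPO1 33.2% to 35.0% and 47.1% to 52.9%. A share also changes when other genes of the class change.

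RAN itself did not pass. The gene (ENSG00000132341, chromosome 12, 130871879 to 130877678) stood at 976, 979 and 931 CPM in control and 977, 900.2 and 901 CPM in curcumol, and the groups overlapped (log2 fold change -0.06 ± 0.05, edgeR adjusted p = 0.357). With library totals it stood at -0.32 and with a GC offset at -0.22, both called. RAN was the member with the highest level per kilobase in control, 199 ± 5.60 CPM, against 189 ± 6.60 for KPNA2, a gap of about the size of their spread. That spread is between libraries and does not cover the exon length used, 4825 bases for RAN and 3140 for KPNA2. Without division by length they stood at 962 ± 27.0 and 595 ± 20.7 CPM in control (SD, n = 3). Named pseudogenes of RAN held 0.249% as many counts as RAN.

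Ratios of counts between close relatives, which do not depend on library scaling, were set side by side for 5 pairs chosen after their values were seen. TNPO1 over TNPO2 was 2.27, 2.55 and 2.44 in control and 8.69, 9.87 and 9.10 in curcumol, a difference of 1.93 on the log2 scale, or 0.78 between the values with a GC offset. KPNA4 over KPNA3 went from 1.22, 1.29 and 1.31 to 2.49, 2.49 and 2.57, and KPNA1 over KPNA6 from 0.351, 0.300 and 0.347 to 0.881, 0.964 and 1.06. KPNA4 over KPNA2 was 0.186, 0.201 and 0.222 in control and 0.749, 0.779 and 0.865 in curcumol. IPO8 over IPO7 moved less, from 0.342, 0.350 and 0.338 to 0.289, 0.291 and 0.263 (-0.29 on the log2 scale, or -0.12 with a GC offset). The other differences were 0.99 for KPNA4 over KPNA3, 1.54 for KPNA1 over KPNA6 and 1.98 for KPNA4 over KPNA2, and with a GC offset 0.95, 1.12 and 1.57. As the pairs were picked for their values, these are a description with no test.

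The change of a member went with its base composition. Over the 45 members with a mean of at least 100 counts, Spearman's rank correlation of log2 fold change with exonic GC content was -0.52, and over 10428 genes of that depth it was -0.39, given as a description since genes share libraries. The 15 that were higher had a median GC content of 39.5% (34.7% to 56.5%) and the 24 that were lower one of 46.1% (37.6% to 58.7%). NUP62, with 56.5%, rose, and NUP37, with 38.3%, fell, against that order. The part of base composition in these changes was tested only through the GC offset, under which NUP35, KPNA3, TNPO1 and XPO1 turned from higher to lower and IPO11 changed sign as well.

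**Figure D4:**
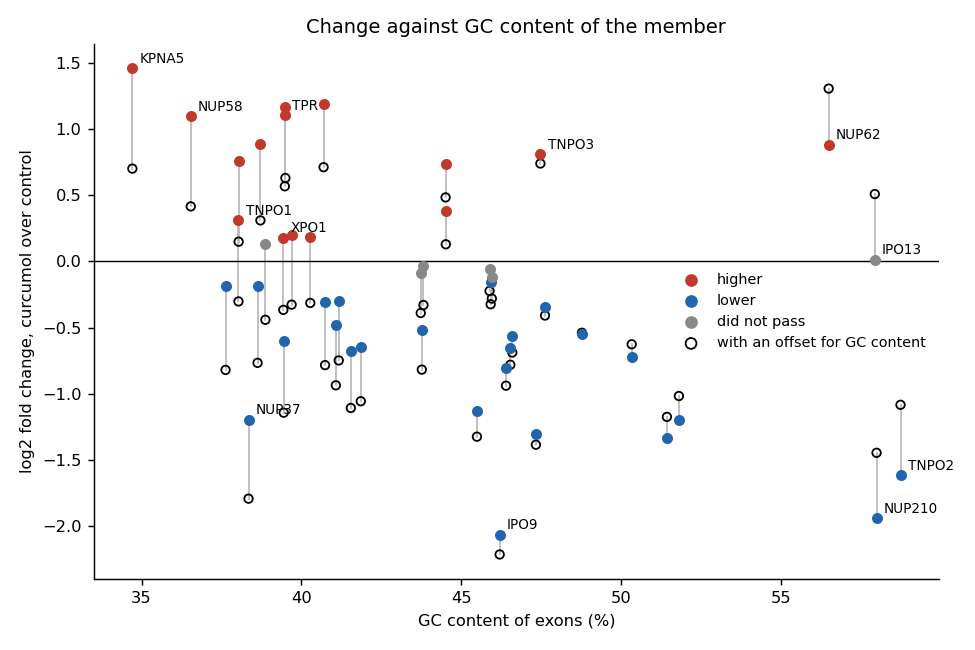
Log2 fold change of curcumol over control (vertical axis) against exonic GC content in percent (horizontal axis) for the 45 members with a mean of at least 100 counts; filled points are the edgeR fit (red higher, blue lower, grey did not pass) and open circles the same genes with an offset for GC content. Members of low GC content move down with the offset, so that XPO1 and TNPO1 cross 0, and IPO13, NUP62, NUP210 and TNPO2, at the GC-rich end, move up.

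Promoters are shown for the 2 members that rose most, NUP210L aside, and the 2 that fell most among those with an entry in the RefSeq table (GRCh38.p14), from 250 bases before to 50 after the start, read along the gene. Of the 48 members 42 had an entry; NUP43, KPNA4, KPNA5, KPNA7, KPNB1 and XPO7 had none. Capitals mark matches, on either strand, to GAANNTTC or TTCNNGAA (heat shock element cores), TGACNNNGC (antioxidant response element core), CACGTG (E-box), CCAAT, the NRF1 type and TTTGGCGC or TTTCCCGC (E2F type). KPNA1 and TPR rose (TPR with the wide spread given above), and IPO9 and NUP210 fell.
KPNA1 (chr3:122514890-122515189, minus strand): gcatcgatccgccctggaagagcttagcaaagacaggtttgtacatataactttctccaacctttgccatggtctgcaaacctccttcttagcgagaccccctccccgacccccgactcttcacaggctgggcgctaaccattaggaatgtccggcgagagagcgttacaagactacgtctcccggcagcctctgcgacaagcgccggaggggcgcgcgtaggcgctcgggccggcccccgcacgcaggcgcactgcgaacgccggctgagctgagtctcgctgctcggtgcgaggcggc
TPR (chr1:186375204-186375503, minus strand): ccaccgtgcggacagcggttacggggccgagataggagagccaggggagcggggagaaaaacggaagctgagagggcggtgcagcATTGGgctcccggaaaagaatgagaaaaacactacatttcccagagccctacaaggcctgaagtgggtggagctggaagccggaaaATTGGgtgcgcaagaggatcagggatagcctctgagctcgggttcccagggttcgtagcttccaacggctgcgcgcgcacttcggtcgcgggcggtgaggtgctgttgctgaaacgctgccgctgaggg
IPO9 (chr1:201828907-201829206, plus strand): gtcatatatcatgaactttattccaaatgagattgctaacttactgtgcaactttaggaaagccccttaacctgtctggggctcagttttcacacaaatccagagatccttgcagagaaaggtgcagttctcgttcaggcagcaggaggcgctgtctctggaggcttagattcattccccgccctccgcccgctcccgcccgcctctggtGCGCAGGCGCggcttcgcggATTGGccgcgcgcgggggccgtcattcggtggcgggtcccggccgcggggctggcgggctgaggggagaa
NUP210 (chr3:13420273-13420572, minus strand): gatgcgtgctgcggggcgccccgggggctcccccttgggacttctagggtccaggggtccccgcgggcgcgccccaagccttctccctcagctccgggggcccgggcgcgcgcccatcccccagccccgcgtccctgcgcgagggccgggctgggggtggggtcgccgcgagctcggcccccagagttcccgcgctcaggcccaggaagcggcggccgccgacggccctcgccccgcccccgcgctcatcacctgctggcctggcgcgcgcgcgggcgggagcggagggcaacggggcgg
The windows of KPNA1 and NUP210 held no match to these letters. That of TPR held CCAAT on the opposite strand at -165 and -79 from the start, and that of IPO9 held it at -20, next to an NRF1 type match at -40. Over the 42 member promoters, CCAAT was found in 20 (47.6%), where 35.7% of 27305 promoters of this length held it. The NRF1 type was found in 8 (19.0%, against 6.28% of all) and the E-box in 7 (16.7%, against 7.43%). The antioxidant core was found in 8 (19.0%, against 13.6%), the heat shock cores in 3 (7.14%, against 13.7%) and the E2F type in 1 (2.38%, against 2.31%). CCAAT stood in 5 of 14 promoters of members that were higher and 13 of 22 of those that were lower. A match is only a stretch of letters, and no binding was measured.

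Genes of the pore and of transport that the symbol rule leaves out moved in both directions. Of 9 other pore subunits 6 rose and 2 fell, where 39.4% of all genes tested were higher and 40.3% lower. With library totals POM121C was not called (0.08, edgeR adjusted p = 0.257) and POM121 was called lower (-0.21, 0.00306). With a GC offset POM121 was called higher (0.52). RAE1, an mRNA export factor that binds NUP98, rose from 59.8 ± 7.37 to 193 ± 5.23 CPM (1.69 ± 0.08), and AAAS, which encodes the pore protein aladin, changed from 63.6 ± 2.20 to 22.4 ± 2.54 CPM (-1.51 ± 0.09; SD, n = 3). Of 12 genes of the RAN cycle and other carriers 8 fell and 2 rose, HIKESHI and SNUPN, the second named after its value was seen, or 10 and 1 with library totals and 7 and 3 with a GC offset. RCC1, the chromatin-bound exchange factor that loads RAN with GTP, fell from 145 ± 6.86 to 45.5 ± 2.90 CPM (-1.67 ± 0.07). RANGAP1, which triggers GTP hydrolysis by RAN, fell by 0.58 ± 0.06 and was no longer called with a GC offset (-0.10, edgeR adjusted p = 0.0567). CSE1L, which returns importin alpha to the cytoplasm, fell by 0.54 ± 0.06 on the log2 scale, or stood at -1.05 with a GC offset. HIKESHI, the carrier that takes HSP70 into the nucleus in heat stress, stood at 21.2, 21.7 and 21.1 CPM in control and 39.7, 43.7 and 39.5 CPM in curcumol (0.94 ± 0.09, edgeR adjusted p = 2.19e-09), or 0.30 (0.00242) with a GC offset.

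The mRNA export list had 8 of 18 genes higher and 9 lower, where 39.4% and 40.3% of all genes tested were. With a GC offset ALYREF was called higher (0.32) instead of lower, and THOC2, CHTOP and NXT1 were not called. NXF1, the general mRNA export receptor, stood at 56.0, 56.2 and 51.8 CPM in control and 266, 246 and 266 CPM in curcumol, far outside the control range (2.25 ± 0.06, edgeR adjusted p = 8.19e-18). DDX19A, a helicase that releases mRNA at the cytoplasmic face, was the lowest of the list at -1.29 ± 0.17 in the main fit. With a GC offset THOC1 (-1.22) stood slightly below DDX19A (-1.19). In the list of lamina and inner nuclear membrane genes, 9 of 14 fell and 5 rose, or 9 and 3 with library totals and 6 and 5 with a GC offset. LMNB1, a B-type lamin, stood at 188, 194 and 189.5 CPM in control and 38.8, 35.7 and 36.3 CPM in curcumol (-2.37 ± 0.07, edgeR adjusted p = 6.35e-18). LEMD3, an inner membrane protein that binds SMADs, rose most of that list in the main fit, from 50.2 ± 1.85 to 154 ± 8.98 CPM (1.62 ± 0.07; SD, n = 3). With a GC offset SYNE1 (1.23) stood level with LEMD3 (1.22).

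**Figure D5:**
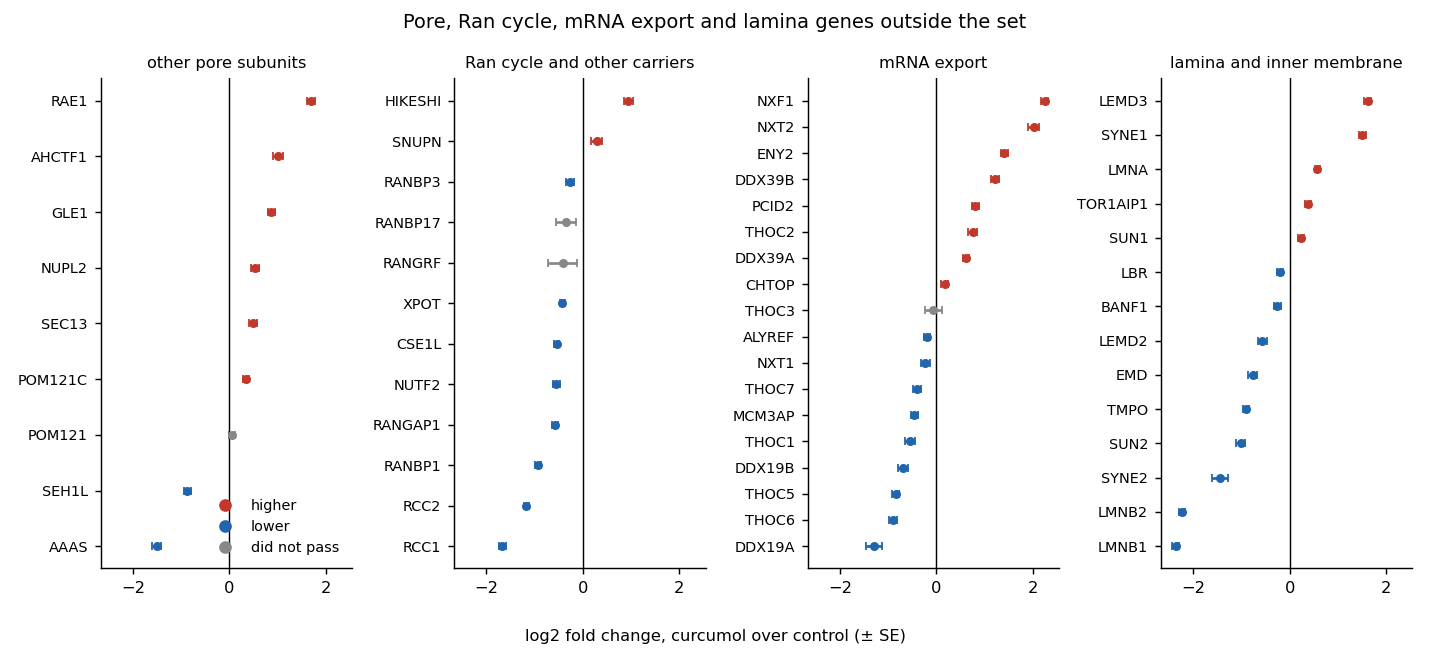
Log2 fold change of curcumol over control (horizontal axis, ± SE) for the 4 lists of related genes outside the symbol rule, each sorted by its change, with red points called higher, blue points lower and grey points not passed. NXF1 and NXT2 lead the mRNA export list and LMNB1 and LMNB2 stand lowest in the lamina list; CHTOP, SUN1 and POM121 fall below 0 with library totals, and ALYREF, BANF1, CHTOP, NXT1, RANBP3, RANGRF and TOR1AIP1 change sign with a GC offset.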

How the data were processed

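RNA from ACHN cells was sequenced in bulk, and the 3 control and 3 curcumol libraries were grouped by their titles. The authors deposited raw read counts per Ensembl gene in 1 table of 58735 genes, with GRCh38 as the build named in the submitters' processing notes. Which aligner, counter and strand setting were used, and how reads that match several genes were handled, is not given in the sources used here, so counts of overlapping genes and near-identical copies are uncertain. Totals were 16962012 to 17827433 counts. Each library was kept as a sample, since replicates differed by more than counting noise (ratio of chi-square to its degrees of freedom 3.63 to 8.70).

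The whole table was fitted with edgeR 4.0.16 in R 4.3.3 (TMM factors, filterByExpr with a minimum count of 10, robust quasi-likelihood test, Benjamini-Hochberg over 15160 genes, threshold 0.05). Exon length, GC content, gene positions and overlaps came from GENCODE 29. Shares of a class used CPM per kilobase of merged exons. Single values were compared by exact permutation over libraries, which cannot go below p = 0.1. Intervals and floors (3 counts for a count of 0) cover counting error only.

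The members, role groups, lists of related genes and cell type markers were chosen with earlier results of these data known. By rule, values per library are given for the members with the highest and the lowest change in each role group (mean of at least 100 counts) and for RAN, KPNB1, XPO1, RANBP2, TPR and KPNA2, and from each list outside the set the highest and lowest gene that passed are named, with HIKESHI, CSE1L and RANGAP1. Further values per library, the pairs of relatives and the other genes named from the lists were chosen after their values were seen. Alternatives were DESeq2 1.42.0, limma-voom (limma 3.58.1), DESeq2-type size factors, library totals, no filter, a stricter filter (a mean of 1 CPM and 50 counts), a test against a 1.2-fold change, the replicate number as a block, spline offsets for GC content and exon length, and leaving out each library. Tested on simulated counts for this comparison (14792 genes run), the test recovered 30% of 1.25-fold, 88% of 1.5-fold, 96% of 2-fold and 100% of 4-fold changes, each of 50 genes. Of its calls, 3.09% were on unchanged genes. Only those genes were changed, evenly up and down and with 1 dispersion for all, whereas 79.7% of the real genes were called. These rates are therefore not the recovery in the real counts.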

Additional observations from a re-analysis of the deposited data

How the results depend on the processing

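The counts of members higher and lower (16 and 24) stayed within 1.5 times of these values under every alternative run. They were 16 and 22 with DESeq2-type size factors, 11 and 29 with library totals, 12 and 33 under a GC offset, 12 and 18 against a 1.2-fold change, and 13 to 16 and 23 to 24 with 1 library left out. Same-numbered libraries did not deviate together (correlations 0.02, -0.01 and 0.08). With the replicate number as a block, 15 were higher and 25 lower, or 11 and 33 with the block and a GC offset. TPR then had an adjusted p of 0.064, or 0.169 with the GC offset, RANBP2 0.126 with both, and NUP98 0.0429 with the block alone. Of all pairs of a control and a curcumol library, control replicate 3 with curcumol replicate 3 had the highest correlation (0.08). Control replicate 2 with curcumol replicate 1 came next (0.05).

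Small changes turned sign. With library totals, NUP35 stood at -0.064, KPNA3 at -0.079, XPO1 at -0.084, IPO11 at -0.13 and IPO13 at -0.25. Under a GC offset, with or without the replicate block, NUP35 stood at -0.33, KPNA3 at -0.31, IPO11 at -0.44, TNPO1 at -0.30 and XPO1 at -0.37. NUP43 stood at 0.00052 with DESeq2-type size factors, 0.0041 with an exon length offset, and IPO13 at -0.036 without a filter on low counts. Leaving out 1 library, NUP43 ranged from -0.078 (without control replicate 1) to 0.0103 (without curcumol replicate 2) and IPO13 from -0.060 (without control replicate 3) to 0.042 (without control replicate 1). The cause was not tested. Without division by length, the share of KPNA6 in its class moved by -1.92 percentage points instead of 0.21. KPNA7 and IPO4 were too low for the filter, and the stricter filter also left out NUP210L.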
